A study of Mus musculus with 24 samples.

Results

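The 10 genes described here belong to stretch sensing and to the YAP pathway, and were followed through muscle differentiation and dexamethasone treatment: Ankrd1, Ankrd2, Ankrd23, Csrp3, Ccn1, Ccn2, Amotl2, Lats2, Tead1 and Tead4. They were chosen by name and make up 10 of the 48544 genes listed, and 8 were found under these symbols. Ccn1 was listed under its older symbol Cyr61 (ENSMUSG00000028195) and Ccn2 under Ctgf (ENSMUSG00000019997), and both were matched by Ensembl identifier. The cells were wild-type C2C12, a line of mouse myoblasts whose cells fuse into myotubes in low serum. Messenger RNA was sequenced from 6 groups of 4 libraries. Day 0 myoblasts were harvested from medium with 10% fetal bovine serum, and day 7 myotubes after 7 days in 2% serum. From day 7, further myotubes were kept in 2% serum with vehicle (1% ethanol) or with 100 µM dexamethasone, a synthetic glucocorticoid used to make muscle cells atrophy, and collected after 24 h (day 8) or 72 h (day 10). Ethanol is not named for the dexamethasone medium, so any difference in ethanol between the media cannot be told apart from the drug. Differentiation and the lower serum cannot be told apart either. The labels do not say that replicates were separate cultures, so p-values measure the spread between these libraries, which may be technical.

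Ankrd1, Ankrd2 and Ankrd23 encode the muscle ankyrin repeat proteins, which bind titin in the I-band of the sarcomere and can also enter the nucleus. Csrp3 encodes muscle LIM protein, a Z-disc protein tied to the response of muscle to stretch. In the Hippo pathway, the kinases STK3 and STK4 (MST2 and MST1) with their scaffold SAV1 activate LATS1 and LATS2, which phosphorylate the coactivators YAP and TAZ and keep them out of the nucleus. In the nucleus YAP and TAZ act through the TEAD DNA-binding proteins, and mechanical load on the cytoskeleton promotes this. Ccn1 and Ccn2 encode secreted matricellular proteins and are widely used as readouts of YAP activity, as is Ankrd1. Amotl2 and Lats2 are both YAP targets and inhibitors of YAP. Tead1 and Tead4 encode TEAD proteins, and Tead4 is also a known target of the myogenic factors.

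Promoters are shown for 5 of the genes: Ankrd1, Ccn1 and Amotl2, whose 250 bases before the transcription start hold the TEAD motif GGAATG, Csrp3, which holds the glucocorticoid receptor half-site AGAACA, and Ankrd2, whose level differed most between groups and which holds neither. The sequences are RefSeq's, on build GRCm38.p6, written 5′ to 3′ on the strand of the gene, and capitals mark a match to either motif or to its reverse complement.
Ankrd1 (chr19:36119845-36120094, minus strand): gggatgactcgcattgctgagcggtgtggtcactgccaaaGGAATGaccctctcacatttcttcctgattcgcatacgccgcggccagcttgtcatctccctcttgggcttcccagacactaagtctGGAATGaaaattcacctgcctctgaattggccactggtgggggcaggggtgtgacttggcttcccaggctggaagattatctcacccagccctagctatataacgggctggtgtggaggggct
Ankrd2 (chr19:42035777-42036026, plus strand): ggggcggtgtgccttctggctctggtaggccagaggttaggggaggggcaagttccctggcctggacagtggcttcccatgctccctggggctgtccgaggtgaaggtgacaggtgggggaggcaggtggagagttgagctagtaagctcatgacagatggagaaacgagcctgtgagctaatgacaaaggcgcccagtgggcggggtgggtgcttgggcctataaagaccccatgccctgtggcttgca
Csrp3 (chr7:48848052-48848301, minus strand): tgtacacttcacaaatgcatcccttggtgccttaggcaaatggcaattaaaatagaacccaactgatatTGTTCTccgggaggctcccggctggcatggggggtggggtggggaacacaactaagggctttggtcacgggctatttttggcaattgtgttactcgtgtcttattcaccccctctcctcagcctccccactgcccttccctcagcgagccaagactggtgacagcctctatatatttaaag
Ccn1 (chr3:145649986-145650235, minus strand): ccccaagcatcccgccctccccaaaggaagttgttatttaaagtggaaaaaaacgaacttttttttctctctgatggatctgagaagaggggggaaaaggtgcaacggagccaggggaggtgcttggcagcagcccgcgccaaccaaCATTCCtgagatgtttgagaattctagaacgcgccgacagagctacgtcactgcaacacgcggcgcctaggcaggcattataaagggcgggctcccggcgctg
Amotl2 (chr9:102717554-102717803, plus strand): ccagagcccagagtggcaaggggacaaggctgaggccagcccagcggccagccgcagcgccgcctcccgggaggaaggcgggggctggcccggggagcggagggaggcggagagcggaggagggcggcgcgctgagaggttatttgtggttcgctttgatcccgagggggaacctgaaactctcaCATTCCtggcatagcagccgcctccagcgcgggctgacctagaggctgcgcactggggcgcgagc
Ankrd1 held 2 copies of GGAATG, 210 to 205 and 123 to 118 bases before the start. Ccn1 held 1 copy at 103 to 98 bases, and Amotl2 held 1 copy at 65 to 60 bases, both on the opposite strand. Csrp3 held 1 copy of AGAACA at 181 to 176 bases, also on the opposite strand. Of the 10 genes, 7 matched the RefSeq promoter table, with 10 start sites among them. Ccn2, Tead1 and Tead4 did not match. The only other match was 1 GGAATG before the second start of Ankrd23, and the E-box CAGCTG, which myogenic factors bind, was in no window of these genes. No match overlapped another. Among all 32851 promoter windows of this length, 12.6% held GGAATG, 16.1% held AGAACA and 13% held CAGCTG. A match is a description of the letters and not of binding.

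Levels are given as TPM, a length-scaled abundance set to the same total in every library, so they can be compared between genes. Differences were fitted with limma on the authors' log2-scale values, and a gene was called at a Benjamini-Hochberg adjusted p below 0.05 over the 16257 genes tested, which include all 10. These values are shrunken: their differences were 0.64 to 0.71 times as large as log2 differences of TPM, so they understate fold changes. The myotube markers (8 genes) summed to 294 to 455 TPM in myoblasts and 17288 to 26851 TPM in all other libraries. The 5 genes fixed as a check of dexamethasone, Fkbp5 and Tsc22d3 among them, summed to 71.7 to 104 TPM with vehicle and 738 to 1164 TPM with dexamethasone at 24 h, and to 99.5 to 187 against 630 to 774 TPM at 72 h. Endothelial markers summed to at most 0.53 TPM and macrophage markers to at most 4.67 TPM in any library. Replicate 1 stood apart in both groups at 72 h. In the vehicle library, 15 genes that were under 0.5 TPM in the other 3 vehicle libraries and at 3 TPM or more in every dexamethasone library had a median level of 13.7% of that in dexamethasone replicate 1. In that dexamethasone library 9 genes chosen in the same way had a median of 18.3% of that in vehicle replicate 1. Only 2 to 4 genes met this rule in each other vehicle library at 72 h, with medians of 21.3% to 88.8%, and 2 to 3 genes in each other dexamethasone library, with medians of 0%. At 24 h the vehicle libraries had 18 to 21 such genes at 0.487% to 1.14%, and the dexamethasone libraries had at most 2, with medians of 4.95% in replicate 4 and 101% in replicate 2. The 10 genes under dexamethasone at 72 h are therefore given with and without both replicate 1 libraries. Other genes named at 72 h are given without them only where a call changed or the ratio of means moved by over 1.5 times.

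**Figure D1:**
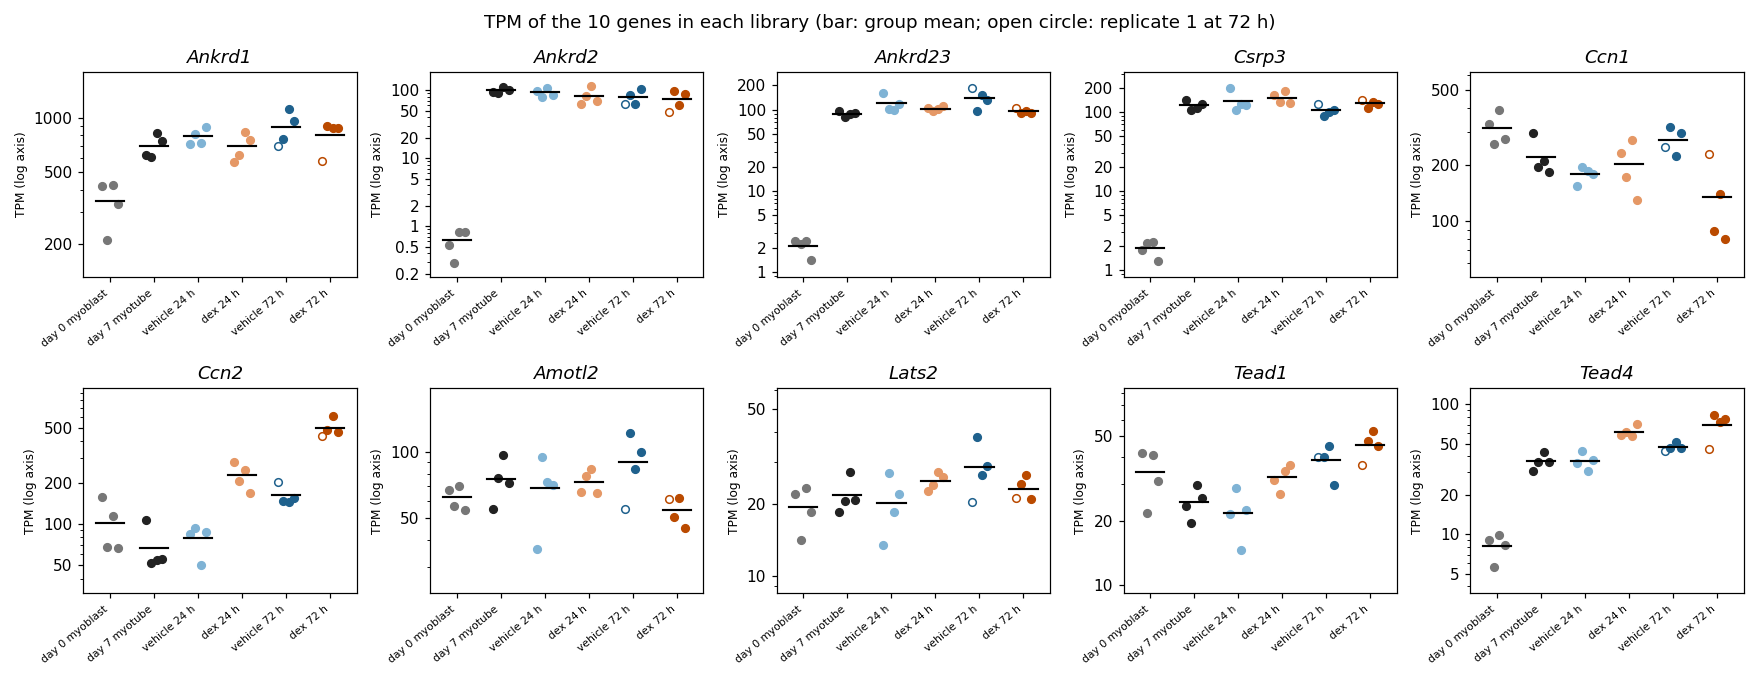
TPM of each of the 10 genes (log axis) in the 24 libraries, 1 point per library in the order of the replicate numbers, with a bar at the group mean and open circles for replicate 1 at 72 h. Ankrd2, Ankrd23, Csrp3 and Tead4 are lowest in all 4 myoblast libraries, and Ccn2 is highest in the 4 libraries of dexamethasone at 72 h, from 439 to 609 TPM.

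All 3 muscle ankyrin repeat genes and Csrp3 rose on differentiation, but from very different starting levels. Ankrd1 was already abundant in myoblasts, at 417, 209, 425 and 334 TPM in replicates 1 to 4, and stood at 621, 606, 822 and 746 TPM in day 7 myotubes. Every myotube library was above every myoblast library. The means were 346 ± 100 and 699 ± 103 TPM (SD, n = 4 each), a ratio of 2.02, and the fitted difference was 0.75 ± 0.12 (SE; limma adjusted p = 7.95e-06).

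Ankrd2 was close to absent in myoblasts, at 0.535, 0.286, 0.827 and 0.83 TPM, and reached 95.5, 90.3, 111 and 102 TPM at day 7. The ranges lay far apart, and the ratio of the means was 161 (0.62 ± 0.262 against 99.8 ± 9.01 TPM). Its fitted difference of 3.63 ± 0.15 (adjusted p = 7.76e-15) was larger than that of the other 9 genes. Ankrd23 went from 2.39, 2.23, 2.44 and 1.39 TPM to 96.6, 82.7, 89.6 and 91.4 TPM, a 42.7-fold difference of means and a fitted difference of 2.93 ± 0.12 (adjusted p = 1.11e-14). Csrp3 went from 1.82, 2.19, 2.27 and 1.31 TPM to 143, 107, 114 and 128 TPM, a 64.8-fold difference and a fitted 3.17 ± 0.13 (adjusted p = 9.53e-15). No myoblast library came near the myotube range for any of these 3 genes. In bulk RNA, fewer cells of a type and less RNA per cell cannot be told apart. Ankrd1 made up 99.2% ± 0.245 (SD, n = 4) of the summed TPM of the 3 ankyrin repeat genes in myoblasts and 78.5% ± 1.76 at day 7, and its mean share stayed between 78.5% and 82.3% in every myotube group.

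Of the TEAD genes, Tead4 rose on differentiation and Tead1 was not called. Tead4 was at 9, 5.65, 9.91 and 8.25 TPM in myoblasts and at 30.5, 36.4, 42.8 and 36 TPM at day 7. The groups did not overlap, with means of 8.2 ± 1.83 and 36.4 ± 5.01 TPM, a ratio of 4.44 and a fitted difference of 1.41 ± 0.09 (adjusted p = 1.86e-11). Tead1 was at 42, 21.9, 41.1 and 30.9 TPM in myoblasts and at 23.5, 19.5, 29.5 and 25.6 TPM in myotubes, and the fitted difference was −0.24 ± 0.11 (adjusted p = 0.0654). Those ranges overlapped. Tead1 was called lower without myoblast replicate 2 (−0.34, adjusted p = 0.0106) or day 7 replicate 3 (−0.28, adjusted p = 0.0497). Tead4 was thus below Tead1 in every myoblast library and above it in every day 7 library, with a mean Tead4 to Tead1 ratio of 0.245 ± 0.0233 and 1.51 ± 0.247. This order is a description of the levels and was not tested.

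The secreted and inhibitory YAP targets were not called on differentiation. Ccn1 was at 331, 256, 390 and 272 TPM in myoblasts and 296, 194, 208 and 183 TPM at day 7 (difference −0.30 ± 0.18, adjusted p = 0.149), and it was called lower when only the groups compared were fitted (adjusted p = 0.0364). Ccn2 was at 157, 68, 114 and 67.2 TPM and then at 107, 51.5, 54.5 and 55.4 TPM (−0.31 ± 0.17, adjusted p = 0.111), and it was called lower when day 7 replicate 1 was left out (−0.47, adjusted p = 0.0131) or myoblast replicate 4 (−0.41, adjusted p = 0.0497). Both genes overlapped between the groups, with the highest day 7 value in replicate 1. Amotl2 averaged 62.3 ± 7.68 TPM in myoblasts and 75.3 ± 17.2 TPM at day 7 (0.23 ± 0.15, adjusted p = 0.182). Lats2, the least abundant of the YAP targets here, averaged 19.4 ± 4.08 and 21.7 ± 3.78 TPM (0.17 ± 0.10, adjusted p = 0.155). In all, 5 of the 10 genes were called, each higher, where 60.3% of all genes tested were called (30.5% higher and 29.8% lower). A share of 5 in 10 is therefore not above the background of this comparison.

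Time in vehicle medium was described by 2 comparisons. Between day 7 and 24 h of vehicle none of the 10 was called, where limma called 0.209% of all genes, and 2555 of the 16257 were under an unadjusted p of 0.05. Ankrd23 was at 160, 103, 98.5 and 118 TPM with vehicle and 82.7 to 96.6 TPM at day 7, without overlap (0.30 ± 0.12, adjusted p = 0.222). How many of all genes lay apart in this way was not counted. Between 24 h and 72 h of vehicle, Ccn2 and Tead1 were called higher (2 of 10, where 4.36% of genes were called, 2.67% higher and 1.69% lower). Ccn2 stood at 84.3, 93.3, 50.1 and 86.8 TPM at 24 h and at 203, 146, 144 and 154 TPM at 72 h, a ratio of means of 2.05 (0.62 ± 0.17, adjusted p = 0.0414). Tead1 stood at 21.5, 28.5, 14.6 and 22.5 TPM and then at 39.9, 40, 44.9 and 29.6 TPM, a ratio of 1.77 (0.48 ± 0.11, adjusted p = 0.0296). Neither gene overlapped between the times. Neither call was stable to the choice of libraries. Without both replicate 1 libraries Ccn2 was at 0.52 and no longer called (adjusted p = 0.081), while Tead1 was at 0.46 and still called (adjusted p = 0.0486). Both calls were lost when vehicle 24 h replicate 1 (adjusted p = 0.0732 for Ccn2 and 0.0584 for Tead1) or replicate 3 (0.196 and 0.151), or vehicle 72 h replicate 1 (0.0863 and 0.0599), replicate 2 (0.0813 and 0.0706) or replicate 3 (0.0941 and 0.0941) was left out, and that of Ccn2 also without vehicle 24 h replicate 4 (0.0556). They were lost as well with no filter on low values (0.0802 and 0.0593) or with only the groups compared (0.129 for both), and that of Ccn2 with quantile normalisation (0.0503). Csrp3 was called lower without vehicle 24 h replicate 2 (−0.48, adjusted p = 0.0286, against −0.37 and 0.0912 with it). On the TPM scale, all genes were shifted by a median of 0.13 (log2) between these groups and 81.1% of the calls were higher, against 61.2% on the deposited scale. On that scale Ccn2 differed by 1.06 ± 0.27 and Tead1 by 0.85 ± 0.21.

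After 24 h of dexamethasone, Ccn2, Tead4 and Tead1 rose and none of the 10 fell. This is 3 of 10 called, where 25.4% of genes were called (13.2% higher and 12.2% lower). The vehicle libraries at 24 h are the control here and also one side of both comparisons over time in vehicle. Ccn2 was at 84.3, 93.3, 50.1 and 86.8 TPM with vehicle and at 282, 206, 248 and 168 TPM with dexamethasone. Each treated library was above each vehicle library, the ratio of means was 2.87 (78.6 ± 19.4 and 226 ± 49.4 TPM), and the fitted difference was 0.97 ± 0.17 (adjusted p = 0.000189).

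Tead4 was at 35.4, 43.5, 31 and 37.2 TPM with vehicle and 58.6, 61.6, 56.7 and 70.3 TPM with dexamethasone, again without overlap. The ratio was 1.68 and the fitted difference 0.46 ± 0.09 (adjusted p = 0.000865). Tead1 was at 21.5, 28.5, 14.6 and 22.5 TPM with vehicle and 31.1, 26.8, 34.2 and 36.7 TPM with dexamethasone. The lowest treated library lay within the vehicle range, and the difference of 0.33 ± 0.11 (adjusted p = 0.0329) was no longer called without vehicle replicate 3 (0.22, adjusted p = 0.161) or without dexamethasone replicate 1 (adjusted p = 0.0591), 3 (0.0729) or 4 (0.0958). It was also lost with no filter on low values (0.0647) or with only the groups compared (0.0536).

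The other 7 genes were not called at 24 h. Ccn1, which is used as a YAP readout in the same way as Ccn2, was at 153, 194, 184 and 178 TPM with vehicle and at 231, 171, 270 and 129 TPM with dexamethasone (0.02 ± 0.18, adjusted p = 0.952). Its treated libraries lay above, within and below the vehicle range. Amotl2 (0.04), Lats2 (0.16), Csrp3 (0.03), Ankrd1 (−0.20), Ankrd2 (−0.22) and Ankrd23 (−0.21) each had ranges that overlapped between the groups. On the TPM scale the median of all genes moved by 0.08 (log2) at 24 h and 64.8% of the calls were higher, against 51.8% on the deposited scale. Ccn2 (1.53 ± 0.27), Tead4 (0.75 ± 0.17) and Tead1 (0.59 ± 0.21) were higher on both.

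**Figure D2:**
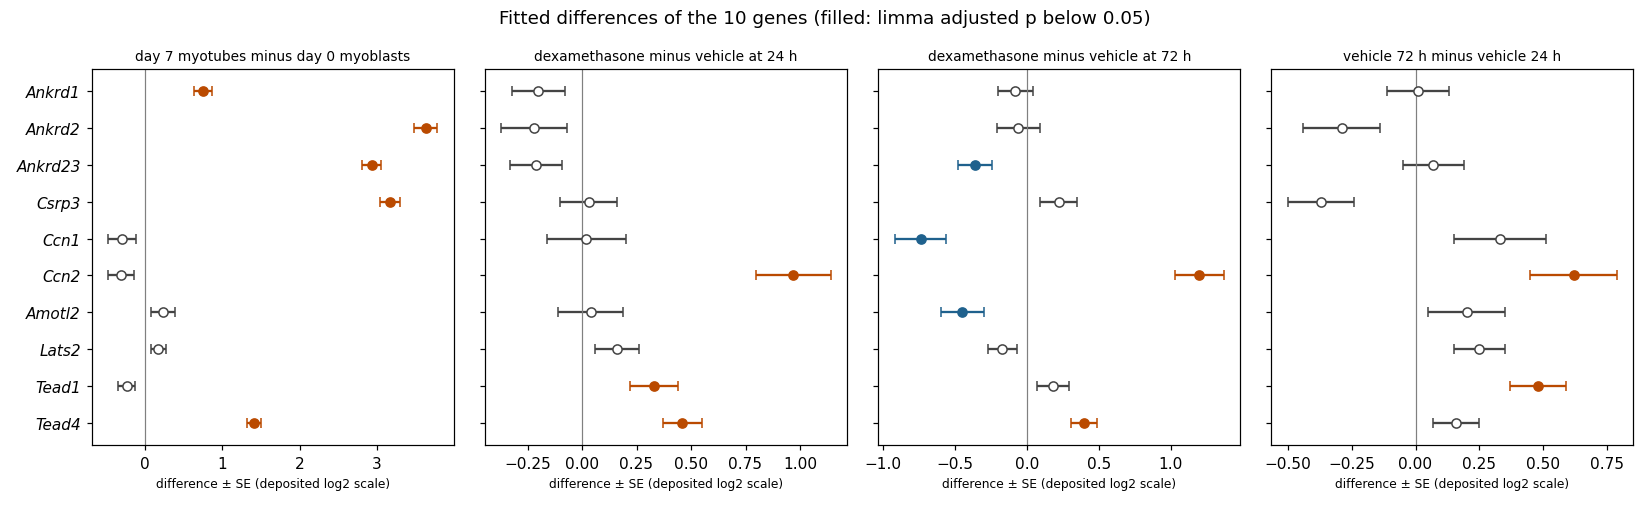
Fitted differences of the 10 genes in 4 comparisons, on the deposited log2 scale, with bars for 1 SE and filled points for limma adjusted p below 0.05 (orange higher, blue lower), each panel on its own horizontal scale. Ccn2 is to the right of 0 under dexamethasone at both times (0.97 and 1.20), while Ccn1 is near 0 at 24 h (0.02) and at −0.74 at 72 h.

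After 72 h of dexamethasone, Ccn2 and Tead4 were again higher, and Ccn1, Amotl2 and Ankrd23 fell. This is 5 of 10 called (4 without both replicate 1 libraries, 3 without dexamethasone replicate 2 or 4), where 30.3% of genes were called (15.2% higher and 15.2% lower). Without both replicate 1 libraries, 2452 of all 16257 genes were called higher and 2546 lower, against 2466 and 2465 with them. The vehicle libraries at 72 h also serve the comparison of the vehicle times. Ccn2 was at 203, 146, 144 and 154 TPM with vehicle and 439, 483, 609 and 469 TPM with dexamethasone. No library overlapped, the ratio of means was 3.10 (161 ± 27.8 and 500 ± 75.1 TPM), and the difference was 1.20 ± 0.17 (adjusted p = 1.35e-05). Without both replicate 1 libraries it was 1.32 (adjusted p = 2.14e-05).

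Ccn1 moved the other way. It was at 249, 319, 223 and 294 TPM with vehicle and at 227, 88, 139 and 80.5 TPM with dexamethasone. The single treated library inside the vehicle range was replicate 1, one of the 2 libraries that stood apart. The means were 271 ± 43.2 and 133 ± 67.3 TPM, 2.03-fold apart, and the difference was −0.74 ± 0.18 (adjusted p = 0.00244). Without both replicate 1 libraries the ranges separated, the means were 279 ± 49.7 and 102 ± 31.6 TPM (SD, n = 3 each), 2.72-fold apart, and the difference was −0.97 (adjusted p = 0.000114).

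Amotl2, which encodes a junctional scaffold that binds and retains YAP, was at 55.4, 123, 84 and 101 TPM with vehicle and at 61.1, 50.8, 62.2 and 45.3 TPM with dexamethasone. Here the vehicle library of replicate 1 lay inside the treated range. The difference was −0.45 ± 0.15 (adjusted p = 0.0234), and −0.64 (adjusted p = 0.00272) without both replicate 1 libraries, where the groups no longer overlapped. The call was lost without vehicle replicate 2 (adjusted p = 0.0954) or 4 (0.0729), or without dexamethasone replicate 2 (0.0635) or 4 (0.0748). Lats2, the kinase gene among the YAP targets, was at 20.3, 38.2, 26.4 and 28.7 TPM with vehicle and 21.2, 24.1, 26.4 and 20.9 TPM with dexamethasone (−0.17 ± 0.10, adjusted p = 0.229, and −0.25, 0.0994, without both replicate 1 libraries).

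Tead4 was at 43.5, 46.6, 51.7 and 46.4 TPM with vehicle and 45.6, 83.5, 73.2 and 77.1 TPM with dexamethasone at 72 h. Only the treated replicate 1 lay within the vehicle range. The difference was 0.40 ± 0.09 (adjusted p = 0.00199), and 0.51 (adjusted p = 5.51e-05) without both replicate 1 libraries. Tead1 overlapped between the groups, at 29.6 to 44.9 TPM with vehicle and 36.5 to 52.8 TPM with dexamethasone (0.18 ± 0.11, adjusted p = 0.228, and 0.27, 0.121, without both replicate 1 libraries). The 36.5 TPM was the treated replicate 1. Without both replicate 1 libraries the Tead1 ranges lay apart (29.6 to 44.9 and 45.3 to 52.8 TPM), though the gene was not called.

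Among the sarcomeric genes, only Ankrd23 was called at 72 h. It was at 184, 96.8, 153 and 131 TPM with vehicle and 104, 91.9, 95.7 and 91.7 TPM with dexamethasone, a 1.47-fold difference of means (−0.36 ± 0.12, adjusted p = 0.0267). The treated libraries were close together and the vehicle libraries spread widely. The ranges overlapped with all libraries and lay apart without both replicate 1 libraries (96.8 to 153 against 91.7 to 95.7 TPM). The call did not hold without both replicate 1 libraries (−0.29, adjusted p = 0.078), without vehicle replicate 1 (−0.24, 0.124) or 3 (−0.33, 0.0672), or without dexamethasone replicate 2 (0.0689), 3 (0.0596) or 4 (0.0586). It was also lost with no filter on low values (0.0547) or with only the groups compared (0.0945). Ankrd1 was at 697, 763, 1128 and 966 TPM with vehicle and 575, 897, 883 and 874 TPM with dexamethasone (−0.08 ± 0.12, adjusted p = 0.653). Ankrd2 averaged 79.1 ± 20.9 and 74.3 ± 23.6 TPM (−0.06 ± 0.15, adjusted p = 0.792), and Csrp3 averaged 106 ± 15 and 129 ± 12.8 TPM (0.22 ± 0.13, adjusted p = 0.215). All 3 overlapped between the groups with all libraries. Without both replicate 1 libraries the Csrp3 ranges lay apart, at 90.4 to 106 TPM with vehicle and 113 to 134 TPM with dexamethasone. How many of all genes lay apart in this way was not counted. Without both replicate 1 libraries none of the 3 was called, at −0.05 for Ankrd1 (adjusted p = 0.801), −0.01 for Ankrd2 (0.983) and 0.25 for Csrp3 (0.219).

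Marker levels also differed between the groups at 72 h. The summed TPM of 8 markers of cycling myoblasts was 370 to 697 with dexamethasone and 101 to 160 with vehicle, all 8 averaging at least 1 TPM with dexamethasone. The 8 fibroblast or tendon markers summed to 300 to 1096 TPM with dexamethasone and to 2352 to 3494 TPM with vehicle, with 5 and 6 of 8 averaging at least 1 TPM. Most of that gap was Col3a1 (338 against 2266 TPM). The means of Mfap5 (70.9 against 332 TPM), Scx (140 against 236 TPM), Cd248 (2.64 against 10.9 TPM) and Dpt (0.235 against 2.88 TPM) were also lower. Pdgfra was alike (5.98 ± 2.49 against 6.24 ± 1.87 TPM), and Thy1 was close to absent in both groups. Tnmd, which defines tendon cells, was close to absent in both groups, at 0 with dexamethasone and at most 0.0207 TPM with vehicle. The satellite cell markers (6 genes) summed to 256 to 373 TPM against 142 to 220 TPM, with 4 and 5 of 6 averaging at least 1 TPM. That gap was carried by Sdc4, at 245 ± 54 against 115 ± 20.4 TPM, while the means of Pax7 (0.904 against 2.47 TPM), Vcam1 (14.7 against 29.8 TPM) and Spry1 (24 against 28.6 TPM) were lower with dexamethasone. The adipocyte markers (6 genes) summed to 111 to 159 TPM against 28 to 38.5 TPM, mostly Fabp4 (75.2 against 2.15 TPM) and Cebpa (51.8 against 26.4 TPM), with Cfd at 0 in both groups. The myotube markers overlapped, at 19250 to 24564 and 17288 to 23658 TPM.

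At 24 h the markers moved less evenly. The fibroblast or tendon markers summed to 1313 to 1530 TPM with dexamethasone and 1942 to 3336 TPM with vehicle, most of it Col3a1 (999 ± 72.2 and 1931 ± 502 TPM). The means of Mfap5 (210 against 414 TPM), Scx (201 against 287 TPM), Cd248 (3.97 against 9.72 TPM) and Dpt (0.69 against 2.87 TPM) were also lower with dexamethasone. Pdgfra was higher with dexamethasone (20.3 ± 5.22 against 4.79 ± 1.88 TPM), and Tnmd and Thy1 were close to absent. The adipocyte markers summed to 140 to 216 and 18.9 to 35.8 TPM, mostly Cebpa and Fabp4. The cycling markers summed to 147 to 175 and 97.9 to 161 TPM, and the higher sum came from Myf5 alone (57.1 ± 5.14 against 8.21 ± 2.72 TPM). The means of the other 7 cycling markers were lower with dexamethasone, among them Cdk1 (15.2 against 20.7 TPM) and Mki67 (0.403 against 0.944 TPM). The part of these shifts in the results for Ccn1, Ccn2, Amotl2, Tead1, Tead4 and Ankrd23 was not tested.

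The response of Ccn1 to dexamethasone differed between the times. In the test of that difference Ccn1 was the only one of the 10 called, where 11.3% of genes were called (5.56% higher and 5.77% lower). The estimate was −0.76 ± 0.25 (adjusted p = 0.049), from 0.02 at 24 h to −0.74 at 72 h. Without both replicate 1 libraries at 72 h it was −0.99 (adjusted p = 0.00329), and Amotl2 was then called too (−0.68, adjusted p = 0.0253, against −0.49 and 0.134 with all libraries). The Ccn1 call was lost, at adjusted p from 0.0541 to 0.123, when any of these single libraries was left out: any vehicle 24 h replicate, dexamethasone 24 h replicates 1 to 3, vehicle 72 h replicates 1, 2 and 4, and dexamethasone 72 h replicates 2 to 4. It was also lost with no filter on low values (0.099) or with only the groups compared (0.094). Amotl2 was called without vehicle 72 h replicate 1 alone (−0.63, adjusted p = 0.0424). For Ccn2 the difference between the times was 0.22 ± 0.23 (adjusted p = 0.585) and for Tead4 −0.06 ± 0.13 (adjusted p = 0.812). Over all genes the TPM scale moved the median of this difference by −0.12 (log2) and 36.2% of its calls were higher, against 49.1% on the deposited scale, and Ccn1 was at −1.26 ± 0.37 on the TPM scale.

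**Figure D3:**
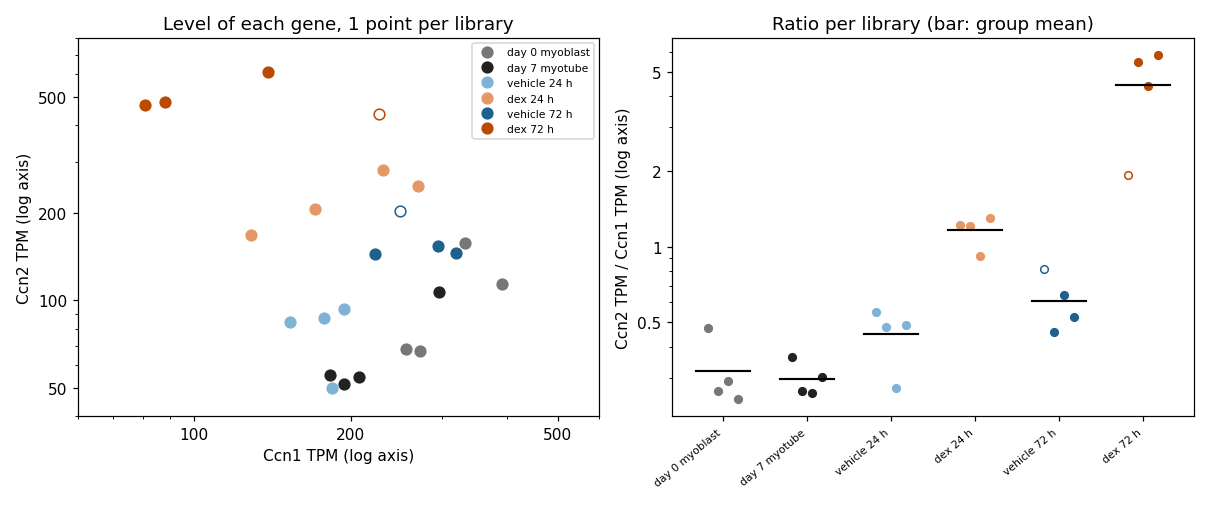
Left, TPM of Ccn2 against TPM of Ccn1 (log axes), 1 point per library. Right, the ratio of Ccn2 to Ccn1 TPM in each library (log axis) with a bar at the group mean, which is 0.298 in day 7 myotubes and 4.41 after 72 h of dexamethasone. Open circles are replicate 1 at 72 h.

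The levels of the CCN pair are set side by side in the plot of Ccn2 against Ccn1. Ccn2 was below Ccn1 in every library without dexamethasone, with a mean ratio of 0.32 ± 0.105 in myoblasts, 0.298 ± 0.0467 at day 7, 0.448 ± 0.121 in vehicle at 24 h and 0.61 ± 0.157 in vehicle at 72 h. With dexamethasone for 24 h the ratio was 1.22, 1.21, 0.92 and 1.30 in replicates 1 to 4. After 72 h it was 1.94, 5.49, 4.40 and 5.83, and the lowest of these was the replicate 1 library. No dexamethasone library overlapped the vehicle libraries of the same time, which reached 0.55 and 0.814. These ratios describe values already tested gene by gene and carry no p of their own.

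**Figure D4:**
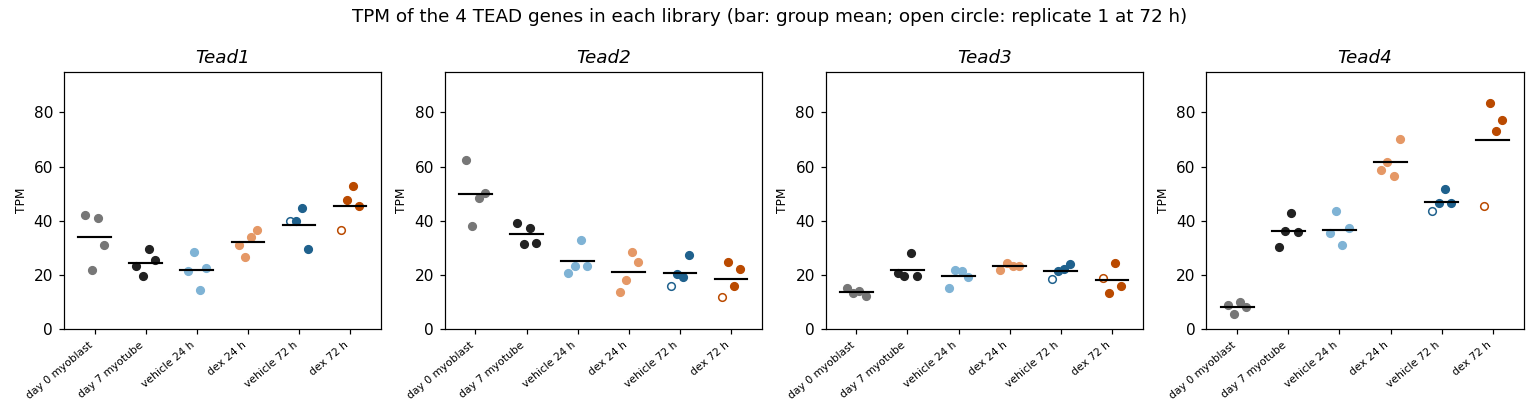
TPM of the 4 TEAD genes in each library (linear axis from 0), with a bar at the group mean and open circles for replicate 1 at 72 h. Tead2 has the highest mean in myoblasts (49.8 TPM) and Tead4 in every myotube group, up to 69.8 TPM after 72 h of dexamethasone.

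Within the TEAD family the leading gene changed. In myoblasts Tead2 averaged 49.8 ± 9.85 TPM, Tead1 34 ± 9.51, Tead3 13.7 ± 1.25 and Tead4 8.2 ± 1.83 TPM. At day 7 Tead4 (36.4 ± 5.01 TPM) and Tead2 (35 ± 4.02 TPM) overlapped, above Tead1 (24.5 ± 4.15 TPM) and Tead3 (22 ± 4.04 TPM). Tead3 rose on differentiation (0.51 ± 0.09, adjusted p = 6.24e-05), and Tead2 was not called (−0.29 ± 0.15, adjusted p = 0.0908). Tead4 made up 7.75% ± 0.811 of the summed TEAD TPM in myoblasts, 30.9% ± 3.05 at day 7, 35.6% ± 3.13 and 36.8% ± 0.59 in vehicle at 24 h and 72 h, and 44.7% ± 3.4 and 45.4% ± 4.03 in dexamethasone at 24 h and 72 h (SD, n = 4). Under dexamethasone Tead2 and Tead3 were called at neither time, with Tead2 at −0.25 and −0.10 and Tead3 at 0.11 and −0.18. The summed TEAD level was 103 ± 10.4 TPM in vehicle and 138 ± 13.3 TPM in dexamethasone at 24 h, without overlap, and 128 ± 8.13 and 152 ± 26.5 TPM at 72 h, where the ranges overlapped (118 to 138 and 113 to 169 TPM). The 113 TPM was dexamethasone replicate 1, one of the 2 libraries that stood apart. The other dexamethasone libraries, at 161 to 169 TPM, lay above every vehicle library at 72 h.

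The coactivator genes were not called under dexamethasone. Yap1 was at 37.2 ± 5.64 TPM in vehicle and 45.3 ± 1.87 TPM in dexamethasone at 24 h (0.13 ± 0.05, adjusted p = 0.0662) and at 45.8 ± 4.68 and 42.8 ± 2.96 TPM at 72 h (−0.05 ± 0.05, adjusted p = 0.5). At 24 h its ranges did not overlap, at 30.5 to 42.5 TPM with vehicle and 43.7 to 47.7 TPM with dexamethasone. Wwtr1, which encodes TAZ, was at 76.6 TPM in both groups at 24 h (−0.07 ± 0.06, adjusted p = 0.457) and at 92.4 ± 2.81 and 84.5 ± 8.35 TPM at 72 h (−0.08 ± 0.06, adjusted p = 0.372). On differentiation Wwtr1 rose from 65.6 ± 14.3 to 91.3 ± 6.44 TPM (0.40 ± 0.06, adjusted p = 8.46e-06) and Yap1 was not called (−0.10 ± 0.05, adjusted p = 0.0896).

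Of 29 genes of the Hippo pathway and YAP cofactors, among them Lats2, Amotl2, Tead1 and Tead4, 6 rose and 12 fell on differentiation, with a median difference of −0.24 against 0.01 over all genes. The share called, 62.1%, was close to the 60.3% of all genes. Beside the TEADs, those with the largest differences were Wwc1, a scaffold of the LATS kinases (−2.40), Vgll2, a TEAD cofactor of muscle (−0.92), Lats1 (−0.69) and Mob1a, an activator of LATS (−0.56). Wwc1 was at a low level, with means of 1.01 TPM in myoblasts and 0.0792 TPM at day 7. After 24 h of dexamethasone 12 rose and 3 fell, a median of 0.16 against −0.01 and 51.7% called against 25.4% of all genes. Sav1, the MST scaffold, went from 40.6 ± 3.21 to 81.1 ± 7.56 TPM (0.61 ± 0.04, adjusted p = 5.73e-10), Limd1, a LIM protein that binds LATS, from 24.1 ± 4.31 to 50.6 ± 5.17 TPM (0.68 ± 0.07, adjusted p = 3.42e-07), and Amot, the founding angiomotin, from 16.5 ± 4.93 to 33 ± 8.18 TPM (0.63 ± 0.16, adjusted p = 0.0072). Ajuba, another LIM protein that binds LATS, fell from 38.4 ± 10.9 to 20.8 ± 1.94 TPM (−0.64 ± 0.11, adjusted p = 0.000297). None of these 4 genes overlapped between the groups. They were named for their large called differences, and how many of all genes lay apart in this way was not counted.

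After 72 h, 7 of the 29 rose and 4 fell (14 called without both replicate 1 libraries), with a median of −0.02 against 0.01 and 37.9% called against 30.3% of all genes. Of all 16257 genes, 2452 were called higher and 2546 lower without both replicate 1 libraries. Ajuba was again lower (19.3 ± 1.09 against 39.6 ± 11.3 TPM, −0.66 ± 0.11, adjusted p = 0.000143) and Amot higher (0.47 ± 0.16, adjusted p = 0.0328), with Map4k4 (0.36) and Mob1b (0.33). The 72 h count depended on single libraries, with 5 called without dexamethasone replicate 4, 6 without vehicle replicate 4, and 7 without vehicle replicate 2 or dexamethasone replicate 2. In the test of the difference between the times, 4 genes of this list were called (13.8%, against 11.3% of all genes), all lower at 72 h: Vgll4, a TEAD corepressor (−0.67, adjusted p = 0.00174), Limd1 (−0.39, 0.0128), Nf2, the upstream regulator merlin (−0.39, 0.00947), and Sav1 (−0.32, 0.00103).

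Among 22 conserved YAP and TAZ target genes, which include Ankrd1, Ccn1, Ccn2, Amotl2 and Lats2, both directions were seen at both times of dexamethasone. On differentiation 6 rose and 9 fell (median −0.21), 68.2% called against 60.3% of all genes. Gadd45a, a stress and growth-arrest gene, rose from 54.1 ± 14.2 to 493 ± 101 TPM (1.97 ± 0.16, adjusted p = 5.01e-10), Nt5e (1.96) and Ccdc80 (1.37) were higher, and F3, tissue factor, was lower, at 4.07 ± 1 against 35.5 ± 5.04 TPM (−2.15 ± 0.20, adjusted p = 8.26e-09). After 24 h of dexamethasone 3 rose and 3 fell (median 0.03), 27.3% called against 25.4% of all genes. Fjx1 rose from 1.18 ± 0.252 to 4.27 ± 1.29 TPM (1.21 ± 0.16, adjusted p = 6.48e-06) and Foxf2 by 0.70, beside Ccn2, while Nuak2 (−0.62), Asap1 (−0.39) and Axl (−0.21) fell.

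After 72 h, 2 of the 22 rose, Ccn2 and Myof, and 8 fell (13 called without both replicate 1 libraries), with a median of −0.19 against 0.01 over all genes and 45.5% called against 30.3%. Of all 16257 genes, 2452 were called higher and 2546 lower without both replicate 1 libraries. Ccdc80, a secreted matrix protein, fell from 295 ± 105 to 38.7 ± 33.8 TPM (−2.02 ± 0.23, adjusted p = 1.28e-06), a ratio of 7.62 that became 14.5 without both replicate 1 libraries. Tgfb2, a TGF-beta ligand, fell from 43.7 ± 10.8 to 16.5 ± 3.09 TPM (−0.93 ± 0.12, adjusted p = 7.36e-06), and Crim1 (−0.79) and Asap1 (−0.61) were also lower. The sum of the fibroblast or tendon markers given above moved in the same comparison, and the part of those markers in these values was not tested. Ccn2 had the largest positive difference of the list at 72 h (1.20), followed by Myof (0.61). Fjx1 (0.22) and Foxf2 (0.27), which rose with it at 24 h, were not called at 72 h, and for Fjx1 the difference between the times was called (−0.99 ± 0.22, adjusted p = 0.00512).

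**Figure D5:**
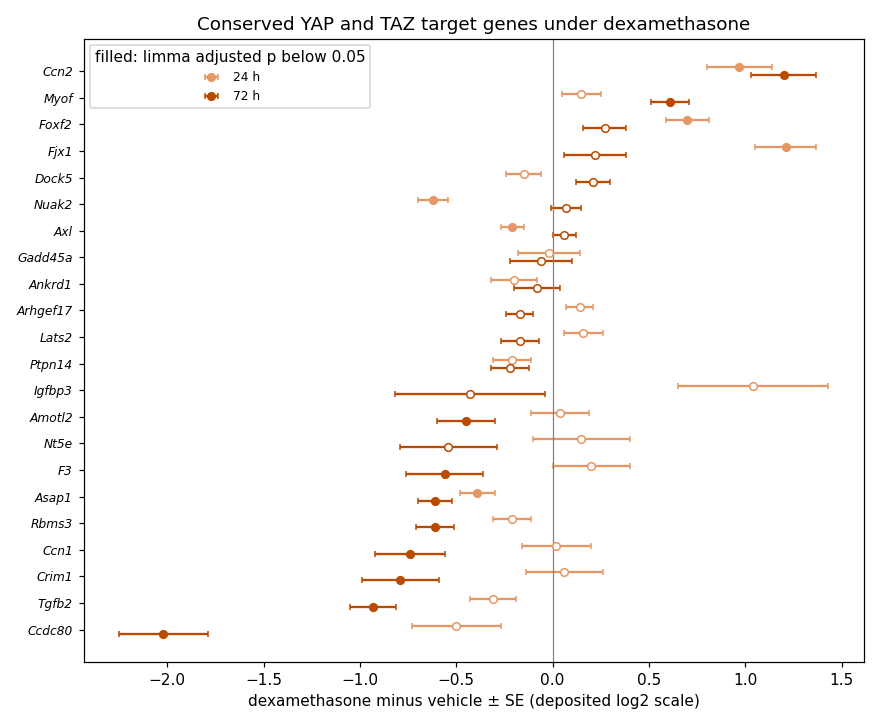
Dexamethasone minus vehicle for 22 conserved YAP and TAZ target genes at 24 h (light) and 72 h (dark), on the deposited log2 scale, with bars for 1 SE and filled points for limma adjusted p below 0.05, ordered by the value at 72 h. Ccn2 is at the top (1.20) and Ccdc80 at the bottom (−2.02).

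The partners of the ankyrin repeat proteins rose on differentiation with few exceptions. Of 18 genes of titin and the Z-disc, 17 were tested and Myoz3 was not, and all 17 were called on differentiation, 15 higher and 2 lower (Nebl and Fhl2), with a median of 1.97 against 0.01 over all genes, of which 60.3% were called. Myoz2, a calcineurin-binding Z-disc protein, rose from 0.817 ± 0.319 to 87.5 ± 9.71 TPM (3.06 ± 0.11, adjusted p = 1.64e-15), and Tcap (2.67) and Xirp1 (2.61) were also higher. After 24 h of dexamethasone Ldb3 (0.47), Nrap (0.45) and Fhl1 (0.40) rose and none fell, 17.6% called against 25.4% of all genes. After 72 h 7 rose and 3 fell, 58.8% called against 30.3% of all genes, and 13 were called without both replicate 1 libraries. Of all 16257 genes, 2452 were called higher and 2546 lower without them. Fhl1, a LIM protein of titin's stress-sensing complex, rose from 586 ± 116 to 1002 ± 39.7 TPM (0.58 ± 0.11, adjusted p = 0.000324), and Nebl (−0.95) and Capn3 (−0.53), the muscle calpain that binds titin, fell. Nebl was low in both groups, with means of 0.881 TPM with vehicle and 0.306 TPM with dexamethasone. Titin itself, Ttn, was called at neither time (0.38 and 0.14).

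Among the paralogs, other CCN genes and Csrp2 fell under dexamethasone. Ccn4, which encodes another secreted CCN protein, fell from 86.1 ± 20.3 to 21.2 ± 3.44 TPM at 24 h (−1.41 ± 0.14, adjusted p = 1.48e-07) and from 88.2 ± 24.4 to 19.2 ± 5.76 TPM at 72 h (−1.44 ± 0.14, adjusted p = 2.13e-07). Ccn5 was at 68.8 ± 22.1 and 114 ± 22.3 TPM at 24 h, not called, and fell from 66.3 ± 17.1 to 22.5 ± 20.5 TPM at 72 h (−1.33 ± 0.32, adjusted p = 0.00302), a ratio of 2.94 that became 4.93 without both replicate 1 libraries. Ccn3 fell at 72 h from a low level (6.98 ± 1.6 to 2.3 ± 2.25 TPM, −1.31 ± 0.44, adjusted p = 0.0292), a ratio of 3.04 that became 5.34 without them. Ccn2 was the only one of the 5 tested CCN genes called higher at either time, and Ccn6 was not tested. Csrp2, the LIM-protein paralog of Csrp3, fell at 24 h (−0.96 ± 0.23, adjusted p = 0.00405) and at 72 h (−1.04 ± 0.23, adjusted p = 0.00142). In all, of 20 tested paralogs and members, 6 rose and 2 fell at 24 h, and 3 rose and 7 fell at 72 h. These shares are 40% against 25.4% of all genes, and 50% against 30.3%.

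Patterns over the 6 group means were compared with those of 15250 genes by root mean square distance of log2(TPM + 0.1), each centred on its own mean. Nearest to Csrp3 were Gm27883 (0.064), Tnnc1 (0.116) and Mylpf (0.124), a troponin and a myosin light chain of muscle. Ankrd2 was nearest to Myl4 (0.244) and Cox6a2 (0.245), and Ankrd23 to 9430073C21Rik (0.180), Arpp21 (0.208) and Klhl40 (0.219). Nearest to Ccn2 were Fam110c (0.153), Hipk2 (0.189) and Fam13a (0.238), and nearest to Ccn1 were Pde4d (0.075), Kif21b (0.076) and Arhgap42 (0.105). Tead4 was nearest to Jph1 (0.094), Map3k9 (0.097) and Rbm38 (0.101), Ankrd1 to Ggt7 (0.051), Amotl2 to Kat2b (0.031), Lats2 to Gm37499 (0.038) and Tead1 to Herc2 (0.083). Some of these neighbours were at low levels, where the added 0.1 affects the pattern. Their group means were 0.132 to 2.13 TPM for Fam110c, 0.176 to 1.68 TPM for Fam13a, 0.137 to 2.03 TPM for Map3k9 and 0.101 to 9.16 TPM for 9430073C21Rik. Among the 10 genes themselves Amotl2 and Lats2 were closest, at 0.18.

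Some of these genes overlap others in the GENCODE annotation. The overlapping genes were at most 3.6 TPM in any library for Ankrd23 (Gm42417, same strand), 1.62 TPM for Ccn2 (Gm15270, opposite strand), 2.94 TPM for Lats2 (Gm20430, opposite strand) and 2.31 TPM for Tead1 (2310014F06Rik, opposite strand). Gm49361, on the same strand as Lats2, was not listed in the tables. How reads were divided between overlapping genes is not given in the sources used here.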

How the data were processed

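Messenger RNA of C2C12 cells was measured in 24 libraries, 4 in each of 6 groups. The submitters' processing notes name build GRCm39, Salmon, DESeq and kallisto (0.51.1) without saying what each was used for. In one table the authors deposited log2-scale values (−2.33 to 20.06), normalised by a method not given in the sources used here. The authors also deposited TPM, summing to 1000000 in each library, with 12428 to 13030 genes at 1 TPM or more. Neither keeps counts, so sequencing depth is unknown and no counting interval is given.

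The log2 values were fitted with limma 3.58.1 in R 4.3.3 (1 mean per group, a mean-variance trend, all 24 libraries), keeping 16257 genes that reached log2 of 10 in at least 4 libraries, with Benjamini-Hochberg adjustment over all of them in each comparison. All 10 genes passed. The alternatives were limma on log2(TPM + 0.1) and log2(TPM + 1) over 15250 genes at 0.5 TPM or more in at least 4 libraries, no filter, a filter at 50, quantile normalisation, a replicate block, only the groups compared, and leaving out single libraries or both replicate 1 libraries at 72 h. The last on the TPM scale was added after seeing the data. The procedure was also run on simulated data with known changes and independent normal spread. That simulation did not imitate the replicate 1 libraries that stood apart, and its outcome is not reported here. TPM means are given with SD (n = 4), and ratios are of TPM means, the larger over the smaller.

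The genes, lists and tests were chosen with earlier results of these data known. All 10 genes are named, and of each list up to 4 called genes with the largest differences, and for likeness up to 3 nearest genes. One gene that the rule would name is not reported here. Further genes (Tead2, Tead3, Yap1, Wwtr1, Ttn, Axl, Myof and markers) were named after their values were seen. Gene identifiers were matched to a symbol for 48291 of 48544 genes, and promoters came from RefSeq on GRCm38.p6.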

Additional observations from a re-analysis of the deposited data

Results flagged for a closer look

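In 2 of the 60 groups of 4 values tested, 1 library lay far from the other 3, and chance flags about 1 group in 20. Ankrd1 was at 575 TPM in replicate 1 of dexamethasone at 72 h, against 874 to 897 TPM in the others. This is one of the 2 libraries that stood apart. Ccn2 was at 107 TPM in replicate 1 of the day 7 myotubes, against 51.5 to 55.4 TPM in the others, and without that library its difference from myoblasts was −0.47 (limma adjusted p = 0.0131).

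The response to dexamethasone differed between 24 h and 72 h, by limma's test of that difference, for Ccn1 among the 10 genes and for 12 other genes of the lists. Of all genes tested, 11.3% were called in this test. The shares were 31.8% of the YAP targets, 13.8% of the Hippo genes, 10% of the paralogs and members and 5.88% of the Z-disc genes. The difference (72 h minus 24 h) was −0.76 for Ccn1 (adjusted p = 0.049). It was negative for Ccn5 (−1.82, adjusted p = 0.0112), Ccdc80 (−1.53, 0.00364), Fjx1 (−0.99, 0.00512), Vgll4 (−0.67, 0.00174), Capn3 (−0.65, 0.0391), Tgfb2 (−0.62, 0.0215), Limd1 (−0.39, 0.0128), Nf2 (−0.39, 0.00947) and Sav1 (−0.32, 0.00103). It was positive for Nuak2 (0.69, 0.000502), Myof (0.46, 0.0379) and Axl (0.28, 0.0446, and 0.22, 0.115, without both replicate 1 libraries at 72 h). Ccn5 went from 0.49 at 24 h, not called, to −1.33 at 72 h, Vgll4 from 0.40 to −0.27, and Nuak2 from −0.62 to 0.07, not called.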

How the results depend on the processing

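Over the single-gene alternatives, called results kept their direction and call in 227 cases and lost the call in 53. Uncalled results stayed uncalled in 780, gained a call in 11 and changed sign in 29, all near 0. The rises of Ankrd1, Ankrd2, Ankrd23, Csrp3 and Tead4 on differentiation and of Ccn2 and Tead4 under dexamethasone, and the fall of Ccn1 at 72 h, held under every alternative run. Unknown depth limits what can be said of low values. The causes of changed calls were not tested.

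Of the 10 genes, 5 to 6 were called on differentiation, 2 to 3 for dexamethasone at 24 h and 3 to 5 at 72 h when single libraries were left out. Of all 16257 genes, the same settings called 9023 to 9604, 2706 to 4358 and 3892 to 5472. For the difference between the times the count of 1 became 0 with no filter or only the groups compared, 2 without both replicate 1 libraries (also 2 on the TPM scale), and 0 to 1 without single libraries. For vehicle at 72 h against 24 h the count of 2 became 0 with no filter, 1 with quantile normalisation, 0 with only the groups compared, 1 without both replicate 1 libraries (0 on the TPM scale) and 0 to 3 without single libraries.

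Genes called numbered 2706 to 4358 for dexamethasone at 24 h without single libraries (4134 with all). For vehicle at 24 h against day 7 the 34 calls became 4 and 5 on the TPM scales, 4 with no filter, 109 with the replicate block, 0 with only the groups compared, 11 without both replicate 1 libraries (1 on the TPM scale) and 0 to 328 without single libraries. For vehicle at 72 h against 24 h the 709 became 270 and 264, 94, 1067, 4, 380 (0) and 2 to 1751 under the same settings in order.

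Hippo genes called for dexamethasone at 72 h (11) were 7 on both TPM scales and 5 to 13 without single libraries, and for vehicle at 72 h against 24 h (2) were 0 with no filter, only the groups compared, or the TPM scale without both replicate 1 libraries, and 0 to 5 without single libraries. YAP targets called for the difference between the times (7) were 4 with no filter, 11 with the replicate block, 3 with only the groups compared, 11 without both replicate 1 libraries on either scale and 4 to 11 without single libraries. For vehicle at 72 h against 24 h (1) they were 0 with no filter, quantile normalisation, only the groups compared or the TPM scale without both replicate 1 libraries, and 0 to 3 without single libraries. Z-disc genes called for the difference between the times (1) were 0 with no filter or only the groups compared, 2 with the stricter filter or quantile normalisation, 3 with the replicate block, 3 without both replicate 1 libraries (2 on the TPM scale) and 0 to 1 without single libraries, and for vehicle at 72 h against 24 h (1) were 0, 2 with the replicate block, and 0 to 1. With all libraries, the difference between the times was called for 31.8% of YAP targets and 5.88% of Z-disc genes, against 11.3% of all genes. Vehicle at 72 h against 24 h gave 6.9% of Hippo genes, 4.55% of YAP targets and 5.88% of Z-disc genes, against 4.36% of all genes.

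The block on the replicate number changed 2 calls among the 10 genes, adding Ccn2 on differentiation (−0.31, adjusted p = 0.0478) and Csrp3 for vehicle at 72 h against 24 h (−0.37, adjusted p = 0.0407), and 14 of 24 libraries correlated best with their own number. Of 60 same-numbered pairs from different groups, 31 had deviations correlated over 0.1 (median 0.12, −0.25 to 0.56, against a median of −0.06 for differently numbered pairs). The numbers were to pair the libraries only if every such pair was over 0.1, so the main fit has no pairing. By these medians same-numbered libraries were nonetheless more alike. With the block, calls over all genes went from 34 to 109 for vehicle at 24 h against day 7. They went from 709 to 1067 for vehicle at 72 h against 24 h. Whether same-numbered libraries share an origin was not tested.

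Signs that changed were these. Without single libraries, differences for dexamethasone at 24 h ranged from −0.13 to 0.13 for Amotl2, −0.10 to 0.16 for Ccn1 and −0.08 to 0.19 for Csrp3; at 72 h from −0.14 to 0.01 for Ankrd1 and −0.17 to 0.05 for Ankrd2; between the times from −0.12 to 0.06 for Tead4 (0.05 without both replicate 1 libraries); for vehicle at 24 h against day 7 from −0.20 to 0.07 for Amotl2, −0.12 to 0.03 for Ankrd2, −0.03 to 0.24 for Csrp3, −0.15 to 0.03 for Lats2 and −0.02 to 0.07 for Tead4; and for vehicle at 72 h against 24 h from −0.07 to 0.08 for Ankrd1 and −0.05 to 0.21 for Ankrd23 (−0.05 without both replicate 1 libraries).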
